A study of Capra hircus with 6 samples.

Results

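Genes of the B cell antigen receptor complex and its coreceptors were followed in peripheral blood mononuclear cells of goat kids (Capra hircus). They were chosen by name, as CD79A, CD79B, MS4A1, CR2, BLK, BLNK, CD22, CD72 and BANK1, and 9 of 9 were among the 24779 genes counted. The tested kids were fed milk replacer (3 libraries) and the controls were fed doe's milk (3 libraries). The study set out to find genes that differ between the feeds. Libraries are labelled as biological replicates, without the age, breed or sex of the animals. No gene was deleted and no drug was given in either group, as far as the labels say.

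The B cell receptor is a membrane immunoglobulin paired with CD79A and CD79B, the signalling chains whose cytoplasmic tails are phosphorylated when antigen binds. Src-family kinases, BLK among them, carry out that phosphorylation, and the adaptors BLNK and BANK1 bring downstream enzymes to the receptor. Coreceptors set the strength of the signal. CR2 (CD21) binds complement fragments on antigen and lowers the threshold for activation, whereas CD22 and CD72 recruit phosphatases that damp it. MS4A1 (CD20) is a membrane protein of mature B cells. In blood these genes mark the B cell fraction of the mononuclear cells. These roles are known mainly from human and mouse.

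The libraries were of 2 kinds that crossed the feeds, and every value depends on this. Replacer-milk library 1 and doe-milk libraries 1 and 2 (51893874, 48063350 and 57204363 counts) held blood cell transcripts. In replacer-milk libraries 2 and 3 and doe-milk library 3 (25023210 to 27129143 counts) counts rose with genomic gene length, introns included (the span), with Spearman correlations of 0.892 to 0.896 across genes, against 0.370 to 0.383 in the others. Replacer-milk libraries 2 and 3 resembled each other most, with a chi-square per degree of freedom of 2.78, against 354 and 359 for the other pairs of their kind, and they were kept as separate libraries as labelled. The first 3 are called transcript-like and the other 3 span-proportional. The transcript-like libraries were also read for 20 B-lineage markers that are not among the 9 genes. All 20 were detected, as was every counted marker of the other cell types, so detection alone does not single out B cells. The 20 summed to 2797 CPM (a gene's share of its library, scaled) in replacer-milk library 1. The sums were 2588 and 2529 CPM in doe-milk libraries 1 and 2. In bulk cells, fewer B cells and less RNA per B cell cannot be told apart.

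**Figure D1:**
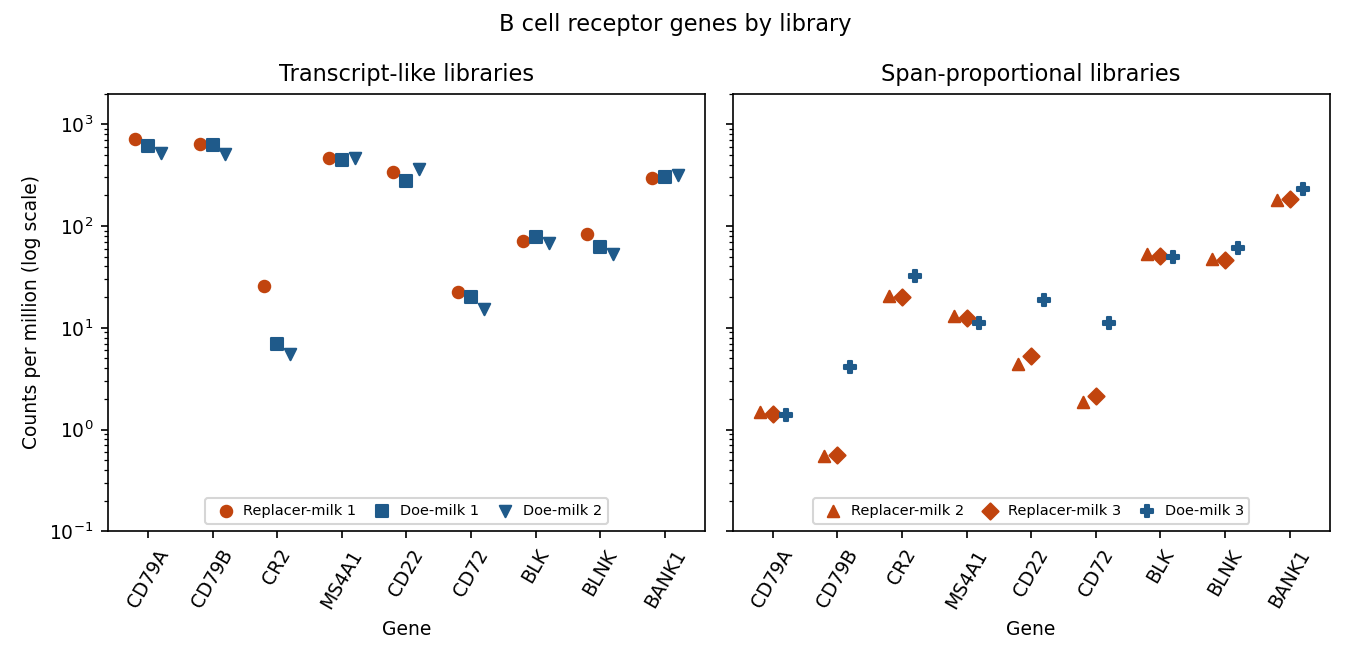
CPM (log axis) of the 9 genes in each library, with transcript-like libraries on the left, span-proportional libraries on the right, replacer milk in orange and doe milk in blue. CR2 at 25.7 CPM in replacer-milk library 1 stands clear of 6.87 and 5.56 CPM in doe-milk libraries 1 and 2, while the points of the other genes lie close together on the left.

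CR2 was the member with the largest difference between the feeds in the transcript-like libraries. It had 25.7 CPM in replacer-milk library 1, against 6.87 and 5.56 CPM in doe-milk libraries 1 and 2. The doe-milk libraries lay 23.5% apart and replacer-milk library 1 stood well above both, at 4.14 times their mean of 6.21 ± 0.924 CPM (SD, n = 2). The counts behind these values were 1335 against 330 and 318. The 95% exact Poisson intervals, which cover counting error only, ran from 24.4 to 27.1 CPM in replacer-milk library 1, and from 6.15 to 7.65 and from 4.96 to 6.20 CPM in the doe-milk libraries.

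In the fit with edgeR, CR2 had a log2 fold change of 1.94 (SE 0.26), and the adjusted p over all genes was 0.261, so the gene did not pass the threshold of 0.05. It ranked 18 of 17356 genes by p-value, and 10 of the 10647 genes with at least 5 CPM on average by the size of the increase. By fold change among all 17356 genes tested, CR2 ranked 95 by the size of the increase and 443 by size in either direction. The call turned on the method. Without a filter on low counts edgeR gave an adjusted p of 0.00244, a setting that called 90 of 21448 genes (0.42%), and DESeq2 gave 0.000132, with 148 of 15337 genes called (0.965%). Limma voom gave an adjusted p of 0.415 and called 0 of 17356 genes. The fold change itself barely moved, from 1.93 to 1.95 over these tools and scalings. It was 2.09 against doe-milk library 2 alone and 1.79 against doe-milk library 1 alone. The replacer-milk side of this comparison is a single library, which is assumed to vary like the doe-milk libraries, and reads of CR2 could be split with related complement receptor genes.

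CR2 was also high relative to other B cell genes counted in the same library. For every 100 CPM of the summed B-lineage markers there were 0.920 CPM of CR2 in replacer-milk library 1, against 0.27 and 0.22 CPM in doe-milk libraries 1 and 2. The count ratio of CR2 to CD79A within a library was 0.0360 in replacer-milk library 1, against 0.0112 and 0.0106 in the doe-milk libraries. Both ratios are taken inside a library, and neither depends on how libraries are scaled to each other. On the genome CR2 lies between CD55 and LOC102187247 in the ARS1.2 assembly. CD55, a regulator of complement on the cell surface, went the other way, at 83.8 CPM in replacer-milk library 1 against 129 and 165 CPM in doe-milk libraries 1 and 2. LOC102187247 was near 0, at 0.405 against 0.0416 and 0.210 CPM. The neighbours were taken as the nearest counted gene on each side, a check chosen after the values were seen.

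The signalling chains CD79A and CD79B differed little between the feeds, and neither passed the test. CD79A had 714 CPM in replacer-milk library 1, against 610 and 526 CPM in doe-milk libraries 1 and 2 (log2 fold change 0.22, SE 0.20, edgeR adjusted p = 0.979). For CD79A replacer-milk library 1 was the highest of the 3, and the doe-milk libraries lay 15.9% apart. CD79B had 637 CPM against 625 and 506 CPM (log2 fold change 0.062, SE 0.21, adjusted p = 0.990). For CD79B replacer-milk library 1 was the highest by CPM and lay between the doe-milk libraries after TMM scaling, and its fold change was 0.22 against library 2 alone and −0.085 against library 1 alone. The count ratio of CD79B to CD79A was 0.892 in replacer-milk library 1, against 1.02 and 0.960 in doe-milk libraries 1 and 2.

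The inhibitory coreceptors CD22 and CD72 differed most between the doe-milk libraries themselves. CD22 had 336 CPM in replacer-milk library 1, against 275 and 359 CPM in doe-milk libraries 1 and 2, and lay between them (log2 fold change −0.025, SE 0.24). CD72 had 22.4 CPM against 19.95 and 15.3 CPM (0.23, SE 0.25, or 0.43 and 0.053 against doe-milk libraries 2 and 1 taken alone). The doe-milk libraries differed from each other by 30.5% for CD22 and by 30.3% for CD72, against 3.41% for BANK1 and 4.58% for MS4A1. After TMM scaling the doe-milk libraries were 0.397 log2 units apart for CD22, where the median over the 10647 genes was 0.205 and the upper quartile 0.371. The sign for CD22 changed with the doe-milk library used, at −0.21 against library 2 alone and 0.18 against library 1 alone. MS4A1, which encodes CD20, had 465 CPM in replacer-milk library 1, against 445 and 465 CPM in the doe-milk libraries (log2 fold change −0.079, SE 0.19). The 3 libraries were within a few percent of each other.

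The kinase and the adaptors had fold changes of both signs, which 1 replacer-milk library cannot settle. BLK, the Src-family kinase, had 71.4 CPM in replacer-milk library 1, against 78.7 and 68.1 CPM in doe-milk libraries 1 and 2 (log2 fold change −0.15, SE 0.21). BLNK, the adaptor that links the kinase SYK to phospholipase C gamma, had 82.5 CPM against 62.4 and 53.1 CPM, the second largest difference among the 9 genes (0.40, SE 0.21, edgeR adjusted p = 0.979). BANK1, a scaffold that binds LYN and the calcium channel of internal stores, had 296 CPM against 306 and 316 CPM (−0.18, SE 0.19). Replacer-milk library 1 was highest for BLNK and lowest for BANK1, and it lay between the doe-milk libraries for BLK, or below both after TMM scaling.

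Counted together, 0 of the 9 genes passed an edgeR adjusted p of 0.05, where 3 of 17356 genes did (0.0173%). At an unadjusted p of 0.05 it was 1 of 9, CR2, beside 929 of 17356 genes (5.35%). Fold changes were positive for 5 of 9, as for 49.4% of all genes. The median log2 fold change of the 9 was 0.062, and that of all genes tested was −0.0057. After TMM scaling 4 members (CD79A, CR2, BLNK and CD72) lay above both doe-milk libraries, as 34.4% of all genes did, and 3 (MS4A1, BLK and BANK1) lay below both, as 33.2% did. Leaving CR2 aside, the other 8 had log2 fold changes from −0.18 to 0.40, and all 8 had an adjusted p of at least 0.979. Their summed level with CR2 was 2650 CPM in replacer-milk library 1, against 2429 and 2314 CPM in doe-milk libraries 1 and 2.

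**Figure D2:**
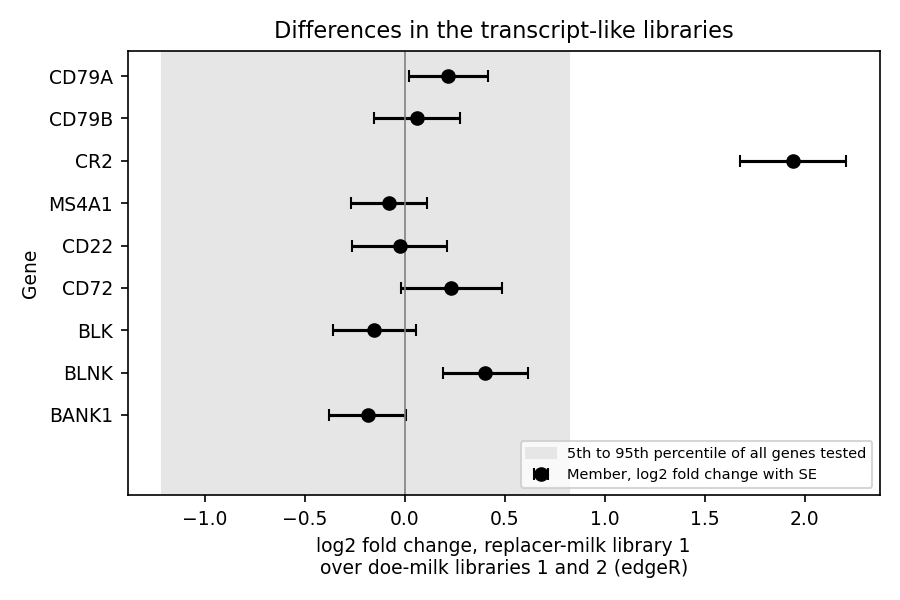
Log2 fold change of each gene between replacer-milk library 1 and doe-milk libraries 1 and 2, from edgeR, with its standard error as the bar. The gray band spans the 5th to 95th percentile of all 17356 genes tested (−1.21 to 0.82), and CR2 at 1.94 is the 1 gene of the 9 outside it.

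Other genes listed with the coreceptors and costimulatory receptors of B cells went both ways in the same comparison. Of 12 further coreceptors and costimulatory receptors, 11 were tested, 0 passed in either direction, 5 had an unadjusted p below 0.05 where 5.35% of all genes did, 6 had positive and 5 negative fold changes, and the median was 0.19 on the log2 scale. FCRL3, a receptor of the Fc receptor-like family, had 33.9 CPM in replacer-milk library 1, against 117 and 96.0 CPM in doe-milk libraries 1 and 2 (log2 fold change −1.76, SE 0.23, edgeR adjusted p = 0.261). Its pattern ran opposite to that of CR2, with replacer-milk library 1 well below both doe-milk libraries. FCRL3 changed sides in the span-proportional libraries, where no test was made. It had 176 and 169 CPM in replacer-milk libraries 2 and 3, against 24.7 CPM in doe-milk library 3. For FCRL3 in the transcript-like libraries DESeq2 gave an adjusted p of 1.72e-06, edgeR without a filter 0.00156 and limma voom 0.393. The receptor TNFRSF13B (TACI) had 18.4 CPM against 30.2 and 27.5 CPM (log2 fold change −0.76, SE 0.22), and FCRLA had 58.0 against 76.6 and 85.6 CPM (−0.59, SE 0.21). CD40, which receives T cell help, lay the other way at 66.8 CPM against 37.7 and 40.2 CPM (log2 fold change 0.67, SE 0.21).

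The B-lineage markers outside the receptor complex also held genes on both sides. Of 20 tested, 0 passed, 9 had an unadjusted p below 0.05 (5.35% of all genes did), 13 were positive and 7 negative, and the median log2 fold change was 0.30. The transcription factor BACH2 had 147 CPM in replacer-milk library 1, against 66.7 and 68.3 CPM in doe-milk libraries 1 and 2 (log2 fold change 1.01, SE 0.19, edgeR adjusted p = 0.409). HVCN1, a proton channel of B cells, had 106 CPM against 49.7 and 53.1 CPM (0.94, SE 0.20), and FCER2 (CD23), the low-affinity IgE receptor, had 58.3 CPM against 34.5 and 32.8 CPM (0.68, SE 0.21). CD24, a small surface glycoprotein of B cells and other leukocytes, lay on the opposite side at 286 CPM against 532 and 481 CPM (log2 fold change −0.93, SE 0.20, adjusted p = 0.536). In each of these 4 the doe-milk libraries lay near each other and replacer-milk library 1 lay outside them. With DESeq2 BACH2 (adjusted p = 0.0344) and CD24 (adjusted p = 0.0485) passed, and without a filter edgeR called BACH2 alone (adjusted p = 0.0350).

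Signalling proteins inside the cell had small fold changes. Of 16 kinases, adaptors and enzymes next to the receptor, 0 passed, 1 had an unadjusted p below 0.05, 11 were positive and 5 negative (median log2 fold change 0.11). SYK, the kinase that binds phosphorylated CD79 chains, had 325 CPM in replacer-milk library 1, against 218 and 272 CPM in doe-milk libraries 1 and 2 (log2 fold change 0.29, SE 0.22), and BTK, the kinase downstream of it, had a log2 fold change of 0.0031 (SE 0.19). VAV2, a guanine nucleotide exchange factor, had the smallest p of the list, at 105 CPM against 62.7 and 73.1 CPM (log2 fold change 0.51, SE 0.21, adjusted p = 0.925). Of 16 downstream genes, 0 passed, 1 had an unadjusted p below 0.05, and 13 were positive (median 0.22), with the calcium channel ITPR1 at 71.3 CPM against 39.1 and 48.9 CPM and the paracaspase MALT1 at 109 CPM against 67.9 and 80.0 CPM. Of 14 inhibitory receptors and phosphatases tested, 0 passed, 0 had an unadjusted p below 0.05, and 9 were positive (median 0.062). SIGLEC10, a sialic acid receptor related to CD22, had 56.4 CPM against 63.8 and 77.3 CPM.

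**Figure D3:**
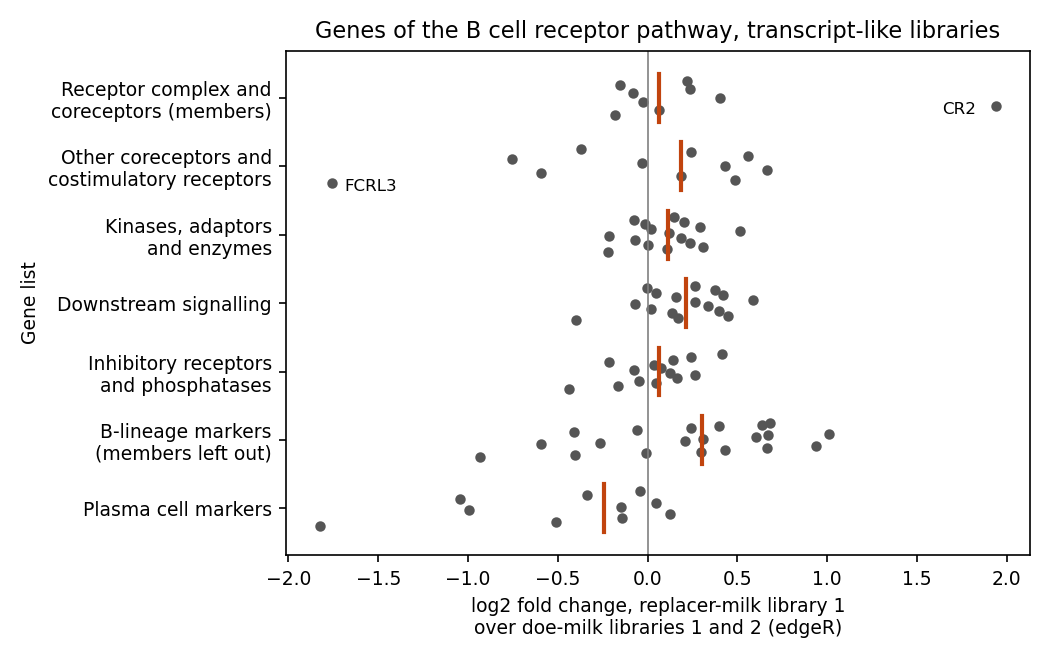
Log2 fold change between replacer-milk library 1 and doe-milk libraries 1 and 2 for each gene tested (gray points) in 7 lists, with the list median as an orange bar. CR2 at 1.94 and FCRL3 at −1.76 lie farthest out among the receptor lists, and the list medians run from −0.24 for plasma cell markers to 0.30 for B-lineage markers.

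Markers of other cells were measured in the same libraries, and 0 of them passed the edgeR test. The 10 plasma cell markers summed to 980 CPM in replacer-milk library 1, against 1698 and 1241 CPM in doe-milk libraries 1 and 2, and 8 of 10 had negative fold changes, with the immunoglobulin joining chain JCHAIN at 535 CPM against 1201 and 777 CPM. The neutrophil markers summed to 312 CPM against 744 and 440 CPM, and 7 of 8 were negative. Of 8 erythroid markers 4 were in the table. Globin HBBC, nearly all of their sum, had 607 CPM against 1619 and 1794 CPM, while ALAS2, of heme synthesis, lay the other way at 9.62 CPM against 1.93 and 5.12 CPM. The T cell markers lay closer together, at 2584 CPM against 2354 and 2133 CPM, as did the monocyte markers at 1276 CPM against 1197 and 955 CPM. None of these lists had all its members at 0. HBBC was called lower without a filter (edgeR adjusted p = 0.00201) and with DESeq2 (adjusted p = 1.53e-06), and the neutrophil receptor CSF3R with DESeq2 (adjusted p = 0.0344). Summed levels of platelet, NK cell and dendritic cell markers in replacer-milk library 1 were 714, 317 and 259 CPM, against 570 to 865, 248 to 405 and 184 to 233 CPM in the doe-milk libraries. A few genes carried most of these sums, and fold changes were negative for 6 of 7 platelet, 3 of 5 NK cell and 6 of 8 dendritic cell markers. The part of cell composition in the values of CR2 and FCRL3 was not tested.

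In the span-proportional libraries the short receptor genes were near the bottom of the count range. CD79A had 1.47 and 1.42 CPM in replacer-milk libraries 2 and 3 and 1.40 CPM in doe-milk library 3, from 35 to 40 counts each. BANK1, the longest of the 9 with a span of 331 kb, was counted at 182 and 183 CPM in replacer-milk libraries 2 and 3 against 232 CPM in doe-milk library 3. The ratio of the mean of the transcript-like to that of the span-proportional libraries differed widely among the 9 genes, at 431 for CD79A, 341 for CD79B, 37.7 for MS4A1 and 34.0 for CD22, but 1.54 for BANK1, 1.42 for BLK and 1.28 for BLNK. For CR2 it was 0.523, so that the span-proportional libraries were the higher on average. All 3 transcript-like libraries lay above all 3 others for 7 of the 9 genes, where 22.6% of all genes in the table did so. BLNK and CR2 were the exceptions.

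Per kb of gene span, which allows genes to be compared in these libraries, most members lay within a factor of a few of the library's median over 12141 autosomal coding genes. Those coding genes span at least 10 kb, whereas CD79A, CD79B and CD72 span 3.86, 3.97 and 8.49 kb. BLK stood at 1.49 and 1.43 times the median in replacer-milk libraries 2 and 3 and at 1.28 times in doe-milk library 3, BLNK at 0.907 and 0.894 times against 1.06 times, and BANK1 at 0.813 and 0.816 times against 0.949 times. CD79A stood at 0.566 and 0.545 times against 0.490 times. For these 4 genes the 3 libraries lay closer together than for CD79B, CD22 and CD72. CR2 stood at 0.618 and 0.594 times the median in replacer-milk libraries 2 and 3, against 0.892 times in doe-milk library 3, the opposite side from the transcript-like libraries. In replacer-milk library 1, where CR2 had 0.521 CPM per kb of span, the lowest 5% of coding genes had at most 0.00136 CPM per kb, against 0.311 and 0.312 CPM per kb in replacer-milk libraries 2 and 3.

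**Figure D4:**
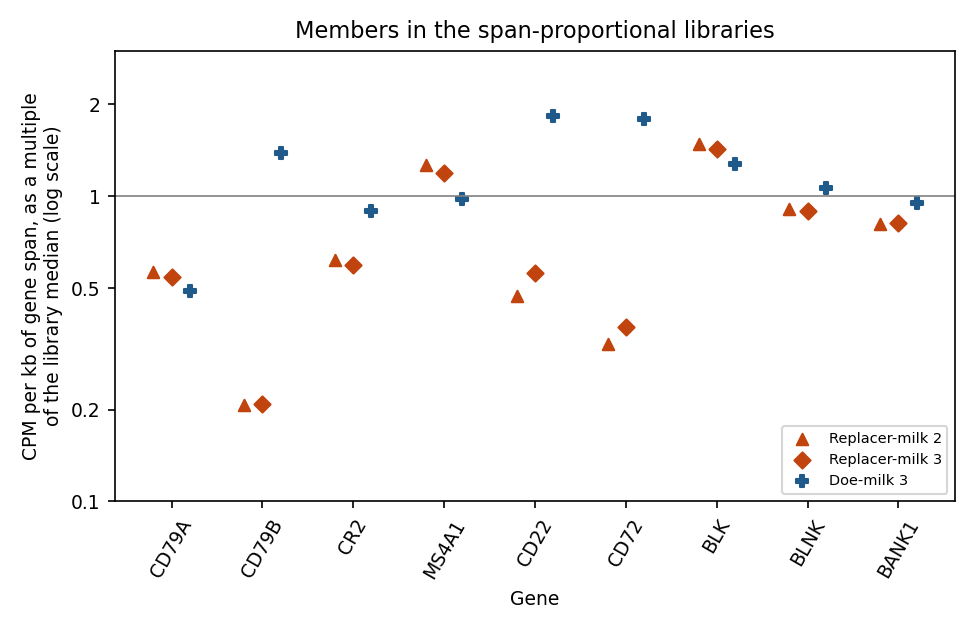
CPM per kb of gene span of the 9 genes in the span-proportional libraries, as a multiple of the library's median over coding genes (log axis). Those coding genes span at least 10 kb. The gray line is at 1, with replacer milk in orange and doe milk in blue. CD79B, CD22 and CD72 separate, at 0.206 to 0.560 times the median in the replacer-milk libraries and 1.39 to 1.83 times in doe-milk library 3.

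CD79B, CD22 and CD72 were lower in replacer-milk libraries 2 and 3 than in doe-milk library 3. CD79B had 0.553 and 0.562 CPM (15 counts each) in replacer-milk libraries 2 and 3, against 4.08 CPM (102 counts) in doe-milk library 3. The exact Poisson intervals reached at most 0.927 CPM in the replacer-milk libraries and began at 3.32 CPM in doe-milk library 3. CD22 had 4.42 and 5.28 CPM against 18.8 CPM, and CD72 had 1.88 and 2.14 CPM against 11.2 CPM. For these 3 genes the mean of replacer-milk libraries 2 and 3 was 0.137 to 0.258 times the level in doe-milk library 3. No test was made in these libraries, whose counts follow gene span. The log2 ratio of replacer-milk libraries 2 and 3 to doe-milk library 3 was −2.87 for CD79B, −2.48 for CD72 and −1.96 for CD22, where the 5th percentile of 22364 genes was −2.68. These values lay at percentiles 4.05, 6.06 and 10.5 of all genes. Among the 10091 genes with a span of 2 to 20 kb, which include all 3, the percentiles were 4.91, 7.88 and 14.2. The 5th percentile of those genes was −2.86.

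Neighbours of all 9 genes were mostly lower in the same libraries, as were most genes. Of 18 neighbours, 13 had a mean in replacer-milk libraries 2 and 3 below doe-milk library 3. Their median ratio was 0.685 (0.253 to 2.08), where the median ratio of all genes was 0.837. For scale, the log2 ratio of CD79A, 0.051, lay at percentile 61.5 of all genes. The median log2 ratio was −0.26 for all genes and −0.51 for genes with a span of 2 to 20 kb. GH1, next to CD79B, had 0.442 and 0.225 CPM in replacer-milk libraries 2 and 3 against 1.32 CPM in doe-milk library 3, while SCN4A on its other side had 54.6 and 53.9 CPM against 47.3 CPM. MAG, next to CD22, had 7.56 and 7.68 CPM against 18.6 CPM, and neither GH1 nor MAG exceeded 0.541 CPM in a transcript-like library. The other neighbour of CD22, FFAR1, and those of CD72, TESK1 and SIT1, had means in replacer-milk libraries 2 and 3 at 0.622, 0.611 and 0.673 times doe-milk library 3, with at most 13 counts in any of these libraries for FFAR1 and SIT1.

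Over all 6 libraries, 3 against 3, none of the 9 genes differed between the feeds beyond the spread. Of 21431 genes tested with edgeR, 0 passed (0%), and 123 had an unadjusted p below 0.05 (0.574%), none of them a member. Limma voom called 0 of the 9 and DESeq2 0 of the 8 for which it gave an adjusted p, all but MS4A1. The adjusted p was 0.987 for each member, 8 of 9 fold changes were negative, and the median log2 fold change was −0.78, beside −0.056 for all genes. With limma voom that median was −1.998, with −3.11 for CD79A and −4.59 for CD79B. CR2 was the exception at 0.72 (SE 0.76). The standard errors were large, from 0.76 for CR2 to 3.02 for CD79B. Span-proportional libraries number 2 in the replacer-milk group and 1 in the doe-milk group. The spread within each feed therefore holds the difference between the library kinds. A feed difference smaller than that could be missed, so this result says little about the feeds. Replacer-milk libraries 2 and 3, alike at a chi-square per degree of freedom of 2.78, were counted as separate replicates. All replacer-milk libraries lay on one side of all doe-milk libraries for 0 of the 9 genes, against 1.89% of all genes above and 1.08% below. With library kind as a term, CD79A, MS4A1, BLK and BLNK turned to positive fold changes of 0.041 to 0.22, and 0 members passed.

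By a distance that takes in both library kinds, the genes nearest to CD79A were not B cell genes. That distance largely follows the gap between the kinds, which was 431 times for CD79A. It says little about likeness of expression within either kind. By Euclidean distance in centred log2 CPM over 6 libraries, among 7659 genes with at least 10 CPM in each transcript-like library, the 5 nearest were RPL23, RPS19, RPS13, RPL28 and RPL6, ribosomal protein genes with distances of 0.547 to 0.712. RPS19, the next gene to CD79A on the chromosome, had 1827 CPM in replacer-milk library 1 against 1936 and 1997 CPM in doe-milk libraries 1 and 2, and 3.91 and 4.31 CPM in replacer-milk libraries 2 and 3 against 6.03 CPM in doe-milk library 3. CD79B ranked 94 by this distance, MS4A1 319 and CD22 351. The remaining members were farther off, with CD72 at rank 2333, BANK1 at 4357, BLK at 4528, BLNK at 4770 and CR2 at 6623. CD79A, CD79B, MS4A1, CD22 and the 5 ribosomal protein genes were far higher in the transcript-like than in the span-proportional libraries.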

How the data were processed

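Raw gene counts of the 6 libraries were deposited by the authors in 1 table of whole numbers, in which 0 rows named no gene. Per the submitters' processing notes, featureCounts 2.0.0, STAR 2.7.10a and fastp 0.22.0 were used, with bcl2fastq 2.19.0.316 and, for quality reports, MultiQC 1.12 and FastQC 0.11.9. Per the labels' protocols, TRIzol extraction was followed by an NEBNext Ultra II library kit. Build, annotation, strand setting and transcript selection: none is given in the sources used here, and overlapping genes on opposite strands cannot be told apart.

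Columns were matched to samples by description and groups by title. Where nothing says that replicates came from separate animals, p-values measure only the spread between these samples. CPM are counts over the library total. Gene span came from the RefSeq table of ARS1.2 and was found for 92.7% of the genes. Its use assumes spans similar to those in the authors' annotation, and a library was called span-proportional above a Spearman correlation of 0.6. Median levels per kb used autosomal coding genes of at least 10 kb. From 61.2% to 66.9% of counts from 2 to 9 were even in each library. No expected share was set beside these values, so whether counts are single independent reads was not tested. Poisson intervals may be too narrow.

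After filterByExpr and TMM scaling, the quasi-likelihood test (robust) of edgeR 4.0.16, run under R 4.3.3, compared replacer milk with doe milk (two-sided), using Benjamini-Hochberg adjustment over all genes tested. Standard errors are the fold change over the root of F. The members, lists and comparisons were chosen with earlier results of these data known. All members are named, with up to 4 genes of smallest p per list for most lists, and BTK and the neighbours beside them were chosen after their values were seen. Of 60 pathway genes listed, 57 were in the table. The test was run on simulated data. Alternatives were upper quartile and RLE scaling, no filter, DESeq2 1.42.0, limma 3.58.1 voom, dispersions not robust, a replicate block, library kind as a term and each library left out.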

Additional observations from a re-analysis of the deposited data

How the results depend on the processing

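In the transcript-like libraries the 3 genes called became 5 with RLE and 5 with upper quartile scaling, 90 without a filter, 148 with DESeq2, 0 with limma voom and 1 with dispersions not robust. The members called were 0, or 1 (CR2) without a filter and with DESeq2. Leaving out a doe-milk library gives 1 against 1, a value with no test. The median log2 fold change of the members was then 0.053 to 0.22, and single members moved too. Without doe-milk library 1, or with the second left out, the values were −0.21 or 0.18 for CD22, 0.22 or −0.085 for CD79B and 0.43 or 0.053 for CD72. Leaving out replacer-milk library 1 leaves no comparison.

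Over all 6 libraries the 0 genes called became 1 with DESeq2 and 1 with library kind as a term, and 0 members passed under any setting run (DESeq2 gave no adjusted p for MS4A1). With limma voom the median of the members was −1.998. With library kind as a term the median of the members was 0.041, and CD79A (0.22), MS4A1 (0.15), BLK (0.041) and BLNK (0.11) changed sign. BLNK, with each library left out, ran from −1.16 to 0.073, positive without replacer-milk library 2 (0.068) or 3. With each library left out in turn the median ran from −3.90, without replacer-milk library 1, to −0.30.

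Replicate numbers are shared by the groups, and deviations of same-numbered libraries correlated at 0.874, −0.866 and 0.895. The sign followed library kind, with 0.870 for replacer-milk library 1 against doe-milk library 2. These correlations therefore cannot tell whether the numbers pair the libraries. With the replicate block 0 genes and 0 members passed and the median was −1.33. The cause was not tested for any of these. Depth limits CD79A (35 to 40 counts) and CD79B (15, 15 and 102 counts) in the span-proportional libraries.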
